A study of Mus musculus with 8 samples.

Results

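Rab GTPases are small proteins of the Ras superfamily that mark the membranes of the cell and direct vesicle traffic between them. The mouse retina libraries described here measured 59 Rab genes, out of 54532 genes in the deposited count table. They are the protein-coding genes whose symbol is Rab followed by a number and at most 1 letter from a to d. The 59 genes lie on 18 chromosomes (build mm10) and have listed lengths of 761 to 13589 bases.

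A Rab protein cycles between a GTP-bound form on a membrane, where it recruits effectors such as tethers and motors, and a GDP-bound form that a carrier protein keeps in the cytosol. Exchange factors switch it on, and GTPase-activating proteins switch it off. Endocytosed material passes through compartments that carry Rab5 (early endosomes), Rab4 and Rab11 (recycling endosomes) and Rab7 (late endosomes), while Rab3 and Rab27 act on vesicles that are about to be secreted. In the retina, Rab3a sits on the synaptic vesicles of neurons, and Rab8 and Rab11 have been tied to the transport of rhodopsin to the outer segment, mostly in frog and fly photoreceptors.

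RNA sequencing was done on 8 retina libraries, 4 labelled sIVs and 4 labelled PBS. The name sIVs stands for small intracellular vesicles, membrane vesicles prepared from inside cells, and PBS, a buffered salt solution, was the control. By its title, the series deals with how retinas take up such vesicles and with neuroprotection, and the comparison asks whether transcripts for the vesicle-traffic machinery differed in retinas of the vesicle group. The labels gave no dose, route, time, strain, age, sex or injury model, and they did not say whether each library came from a separate animal. Every p-value here thus reflects the spread among these libraries alone, which may be technical.

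In each group the replicates carry the numbers 1, 3, 4 and 5, and lists of 4 values below follow that order. Library totals ran from 13803958 to 16622259 counts. Of 17004 genes tested, edgeR's quasi-likelihood test with Benjamini-Hochberg adjustment called none at 0.05, and 255 had an unadjusted p under 0.05. All 6 lists of neuronal and Müller glial markers were fully detected in the libraries, with no marker at 0 overall. The library sIVs replicate 4 stood apart: 3403 of the 17004 genes were more than 2-fold from the median of the other 7 libraries there, against 197 to 1116 in any other library. PBS replicate 1 was the library with 1116 such genes.

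Rab paralogs differ enough in sequence for reads to tell them apart. A stretch of 60 coding bases that spans the same aligned positions is printed for the Rab3 group, which holds the most abundant Rab transcript of these retinas, and for the Rab5 group. The sequences are from build GRCm38 (mm10) with the GENCODE M21 annotation, sense strand, 5′ to 3′. Capitals mark bases that differ from the first sequence of each group.
Rab3a: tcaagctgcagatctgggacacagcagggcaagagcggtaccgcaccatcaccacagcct
Rab3b: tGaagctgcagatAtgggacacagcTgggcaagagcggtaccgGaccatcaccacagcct
Rab3c: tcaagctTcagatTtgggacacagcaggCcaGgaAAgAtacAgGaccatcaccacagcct
Rab3d: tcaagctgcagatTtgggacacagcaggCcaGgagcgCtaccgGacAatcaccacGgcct
Rab5a: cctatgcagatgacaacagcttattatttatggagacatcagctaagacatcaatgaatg
Rab5b: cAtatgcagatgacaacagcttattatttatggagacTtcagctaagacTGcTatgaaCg
Rab5c: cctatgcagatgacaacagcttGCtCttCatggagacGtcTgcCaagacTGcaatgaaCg
In this stretch Rab3b differed from Rab3a at 4 bases, Rab3d at 7 and Rab3c at 9, and Rab5b and Rab5c differed from Rab5a at 6 and 10. Over whole coding sequences, the 21 pairs of Rabs that share a number were 60.6% to 78.5% identical, and the longest identical run was 38 bases. No Rab gene shared a 150-base window, the read length per the labels, with another Rab gene.

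Some Rab genes do share sequence with other genes, and their counts are uncertain to that extent. The coding sequence of Rab11b matched 653 of 654 bases of the pseudogene Rab11b-ps2, and that of Rab7 was 98.4% identical to Rab7-ps1. The pseudogenes were listed with 1658 and 520 counts in all libraries together, against 22175 for Rab11b and 26559 for Rab7. The largest shares of same-strand windows held in common were 72.9% for Rab43, with Gm45140, and 44.4% for Rab4b, with the readthrough gene Gm21983. On the opposite strand, Rab2b shared 47.8% of its windows with Gm43766 and Tox4, and Rab24 shared 33.2% with Prelid1. Whether the authors' counting used strand is not given in the sources used here, so reads of such antisense pairs may be mixed.

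Expression of the family was dominated by a few genes. FPKM is the number of fragments per kilobase of gene length, scaled to library size, and levels of different genes are compared only on that scale. The deposited values differ from those computed with the count totals by a constant factor in each library, from 0.943 to 1.03. Rab3a, the synaptic-vesicle Rab (chr8:70754679-70758677, plus strand), led with a mean of 143 FPKM over the 8 libraries. It was followed by Rab2a and Rab1b, which act between endoplasmic reticulum and Golgi, at 96.6 and 77.7 FPKM, by Rab7 of late endosomes at 82.8 FPKM and by Rab5c of early endosomes at 56.4 FPKM. These 5 genes made up 43.2% of the summed Rab FPKM and the 10 highest made up 63.5%. The mean level was at least 10 FPKM for 24 Rab genes, 1 to under 10 FPKM for 26 and under 1 FPKM for 9. Most neighbours in this order overlapped in range over the libraries: of 58 neighbouring pairs, only Rab14 and Rab5a had separate ranges. The level of Rab18, 46.5 FPKM with the listed length of 2257 bases, would be 15.3 FPKM with the M21 exon length of 6850 bases, so its place depends on the annotation.

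**Figure D1:**
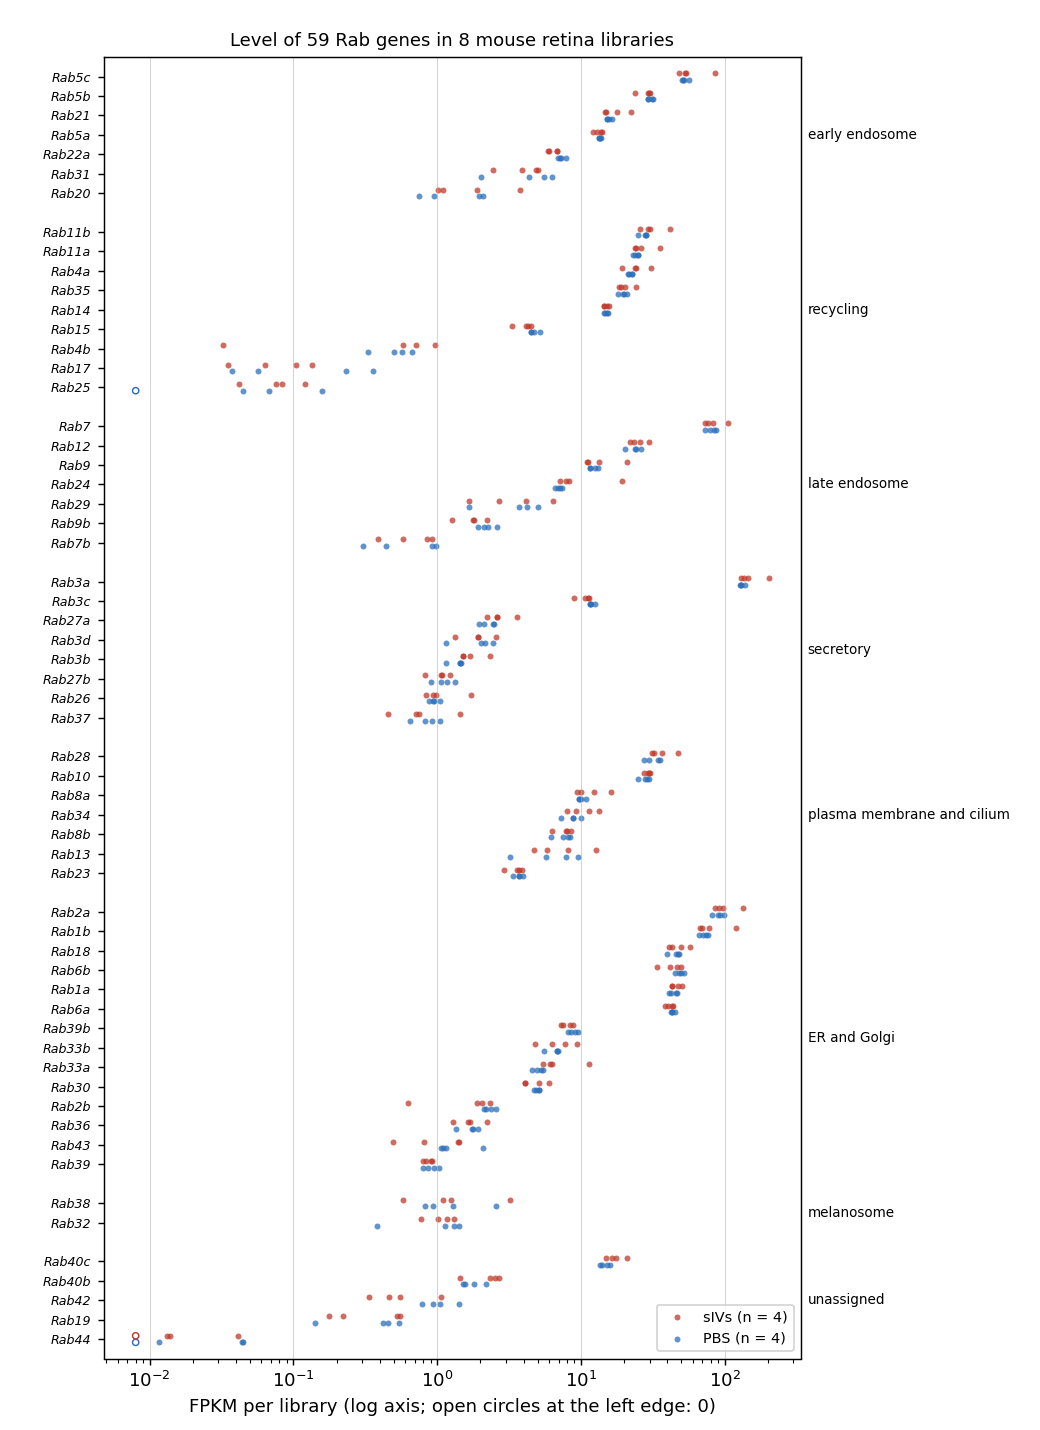
Level of each of the 59 Rab genes in FPKM (log axis), with 1 point per library, sIVs above PBS, grouped by compartment and open circles at the left edge for a level of 0. Rab3a has the highest mean, 143 FPKM, and Rab17, Rab25 and Rab44 lie at the low end.

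Early endosomal Rabs were carried mainly by the 3 Rab5 genes, whose products fuse incoming vesicles with early endosomes. Rab5c (chr11:100715009-100738215, minus strand) gave 43.6% of the summed FPKM of the 7 early endosomal genes. In every library Rab5c exceeded Rab5b and Rab5b exceeded Rab5a, with median ratios of FPKM of 1.73 and 2.17. Rab21, linked to the uptake of integrins, averaged 16.5 FPKM. Rab22a and Rab31, both close to Rab5, averaged 6.84 and 4.30 FPKM, and Rab20, known from phagosomes of macrophages, averaged 1.68 FPKM.

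Recycling Rabs were spread more evenly. Rab11b (chr17:33742484-33760530, minus strand) and Rab11a, which serve the slow recycling route, averaged 29.6 and 25.8 FPKM. Rab11b was the higher in 8 of 8 libraries, though the ranges of both genes overlapped across libraries. Rab4a, of the fast route, averaged 23.2 FPKM and its paralog Rab4b 0.543 FPKM. Rab35, another fast recycling Rab, averaged 20.0 FPKM, Rab14, shared by Golgi and endosomes, 15.0 FPKM and Rab15, tied to slower endocytosis, 4.40 FPKM. Rab17 and Rab25, recycling Rabs of epithelia, were barely detected, with at most 12 and 4 counts in a library.

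Late endosomal transcripts were mostly Rab7 (chr6:87999106-88045270, minus strand), which drives late endosomes towards lysosomes and gave 61.3% of the summed FPKM of that compartment. Rab12, linked to the degradation of recycling receptors, averaged 24.4 FPKM. Rab9, which returns receptors from late endosomes to the Golgi, averaged 13.2 FPKM, and Rab24, linked to autophagy, 8.83 FPKM. Rab29, a partner of the kinase Lrrk2, averaged 3.70 FPKM. The paralogs Rab9b and Rab7b averaged 2.00 and 0.674 FPKM.

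Secretory transcripts were nearly all Rab3a, which gave 87.4% of the summed FPKM of 8 genes. Rab3c, a second Rab3 of secretory vesicles, averaged 11.2 FPKM, and Rab3d and Rab3b 1.94 and 1.56 FPKM. The Rab27 genes, which place secretory granules and lysosome-related organelles at the plasma membrane, were low, with 2.50 FPKM for Rab27a and 1.08 FPKM for Rab27b. Rab26 and Rab37, of secretory granules, averaged 1.04 and 0.851 FPKM.

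Outside these 4 compartments, 14 Rab genes of endoplasmic reticulum and Golgi made up the largest share of the family. That share was 36.2% ± 0.668 of the summed Rab FPKM in sIVs retinas and 37.1% ± 0.453 in PBS retinas (SD, n = 4 each). Besides Rab2a and Rab1b they included Rab6b, Rab1a and Rab6a at 45.8, 45.1 and 42.4 FPKM. The 7 genes of plasma membrane and cilium held 9.70% to 9.97% in sIVs retinas and 9.37% to 9.56% in PBS retinas, so that this share did not overlap between the groups, while their summed FPKM did (96.4 to 131 in sIVs retinas, 90.8 to 99 in PBS retinas). Among the shares of the 7 compartments it was the only one without overlap, and the difference in share was not tested. The share of endoplasmic reticulum and Golgi genes, lower on average in sIVs retinas, barely overlapped. It ran from 35.257% to 36.699% in sIVs retinas and from 36.698% to 37.730% in PBS retinas. Of these genes Rab28, a ciliary Rab of photoreceptors, averaged 34.4 FPKM and Rab10, of exocytosis, 28.5 FPKM. The pigment-organelle genes Rab38 and Rab32 averaged 1.47 and 1.07 FPKM. Of the 5 genes placed in no compartment, Rab40c, part of a ubiquitin ligase, stood at 16.2 FPKM, and Rab44 had at most 4 counts in a library.

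Across paralogs, 1 gene usually prevailed. The ranges of FPKM over libraries were separate for 17 of 21 pairs with a shared number, and the same gene was the higher in 8 of 8 libraries for 18 pairs. Rab7 exceeded Rab7b by a median of 115-fold, Rab2a exceeded Rab2b 43.1-fold, and Rab39b exceeded Rab39 9.50-fold. The pairs with overlapping ranges were Rab11b and Rab11a, Rab6b and Rab6a, Rab33b and Rab33a, and Rab3d and Rab3b.

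Between sIVs and PBS retinas, the summed levels of the 4 compartments differed by less than the SD of the sIVs libraries. Secretory Rabs summed to 174 ± 34.0 FPKM in sIVs retinas and 152 ± 4.46 FPKM in PBS retinas (SD, n = 4 each). Late endosomal Rabs summed to 141 ± 29.9 and 130 ± 10.4 FPKM, early endosomal Rabs to 131 ± 18.3 and 125 ± 4.74 FPKM, and recycling Rabs to 124 ± 18.0 and 114 ± 3.57 FPKM, in sIVs and PBS retinas in each case. The SD of the sIVs libraries exceeded each of these differences, the SD of the PBS libraries did not, and the ranges of the groups overlapped. In each compartment sIVs replicate 4 had the highest sum (224 FPKM secretory, 184 late endosomal, 158 early endosomal and 150 recycling). The other sIVs libraries had 150 to 165, 120 to 137, 118 to 128 and 111 to 122 FPKM in that order. Summed over all genes, FPKM reached 329833 in sIVs replicate 4 and 242057 to 259160 in every other library. As shares of the summed Rab FPKM, secretory genes held 15.8% ± 0.581 and 15.0% ± 0.488, late endosomal genes 12.8% ± 0.632 and 12.8% ± 0.540, early endosomal genes 12.0% ± 0.248 and 12.4% ± 0.210, and recycling genes 11.3% ± 0.128 and 11.2% ± 0.174, again sIVs and then PBS. In bulk tissue, fewer cells of a type and less RNA per cell cannot be told apart.

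No Rab gene passed the test between the groups. Of the 59 genes, 56 had enough counts to be tested, and Rab17, Rab25 and Rab44 did not. edgeR called 0 of the 56 at an adjusted p under 0.05, against 0.0% of all genes. None of the 56 had an unadjusted p under 0.05, against 1.5% of all genes (1.04% with sIVs higher and 0.459% with sIVs lower). Their adjusted p values ran from 0.810 to 0.999. DESeq2 and limma-voom with library quality weights also called none, with 1 and 2 members under an unadjusted 0.05 (Rab33a with DESeq2, Rab40c and Rab42 with voom). The log2 fold change of sIVs over PBS was positive for 36 members and negative for 20, with a median of 0.08, and 51.3% of all genes tested were positive with a median of 0.01. Under voom with quality weights 20 of the 56 were positive and the median was -0.04, so the balance turned. In the edgeR fit the log2 fold change ran from -0.79 for Rab42 to 0.62 for Rab24. For 45 of the 56 genes the 95% confidence interval lay within a 2-fold change in either direction, and for 30 within 1.5-fold. For those genes, changes beyond the bound lay outside these approximate intervals. All 56 intervals included 0.

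By compartment, the fold changes were small in each of the 4 groups. Among early endosomal genes 3 of 7 were positive, with a median log2 fold change of -0.03. Among recycling genes it was 6 of 7 tested with a median of 0.14, among late endosomal genes 6 of 7 with 0.08, and among secretory genes 4 of 8 with 0.12. Genes of endoplasmic reticulum and Golgi had 7 of 14 positive with a median of -0.01, and genes of plasma membrane and cilium 6 of 7 with 0.22. Both melanosome genes were positive with a median of 0.07. These medians moved with single libraries in each compartment. Without sIVs replicate 4 the recycling median was 0.03, the secretory median 0.02 and the late endosomal median -0.04. Over all fits with 1 library left out, the median ran from -0.05 to 0.03 for early endosomal genes, from 0.03 to 0.17 for recycling genes, from -0.04 to 0.23 for late endosomal genes and from 0.02 to 0.25 for secretory genes. It ran from -0.03 to 0.05 for endoplasmic reticulum and Golgi, from 0.03 without PBS replicate 1 to 0.30 for plasma membrane and cilium, and from -0.31 without sIVs replicate 5 to 0.36 for melanosome genes.

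**Figure D2:**
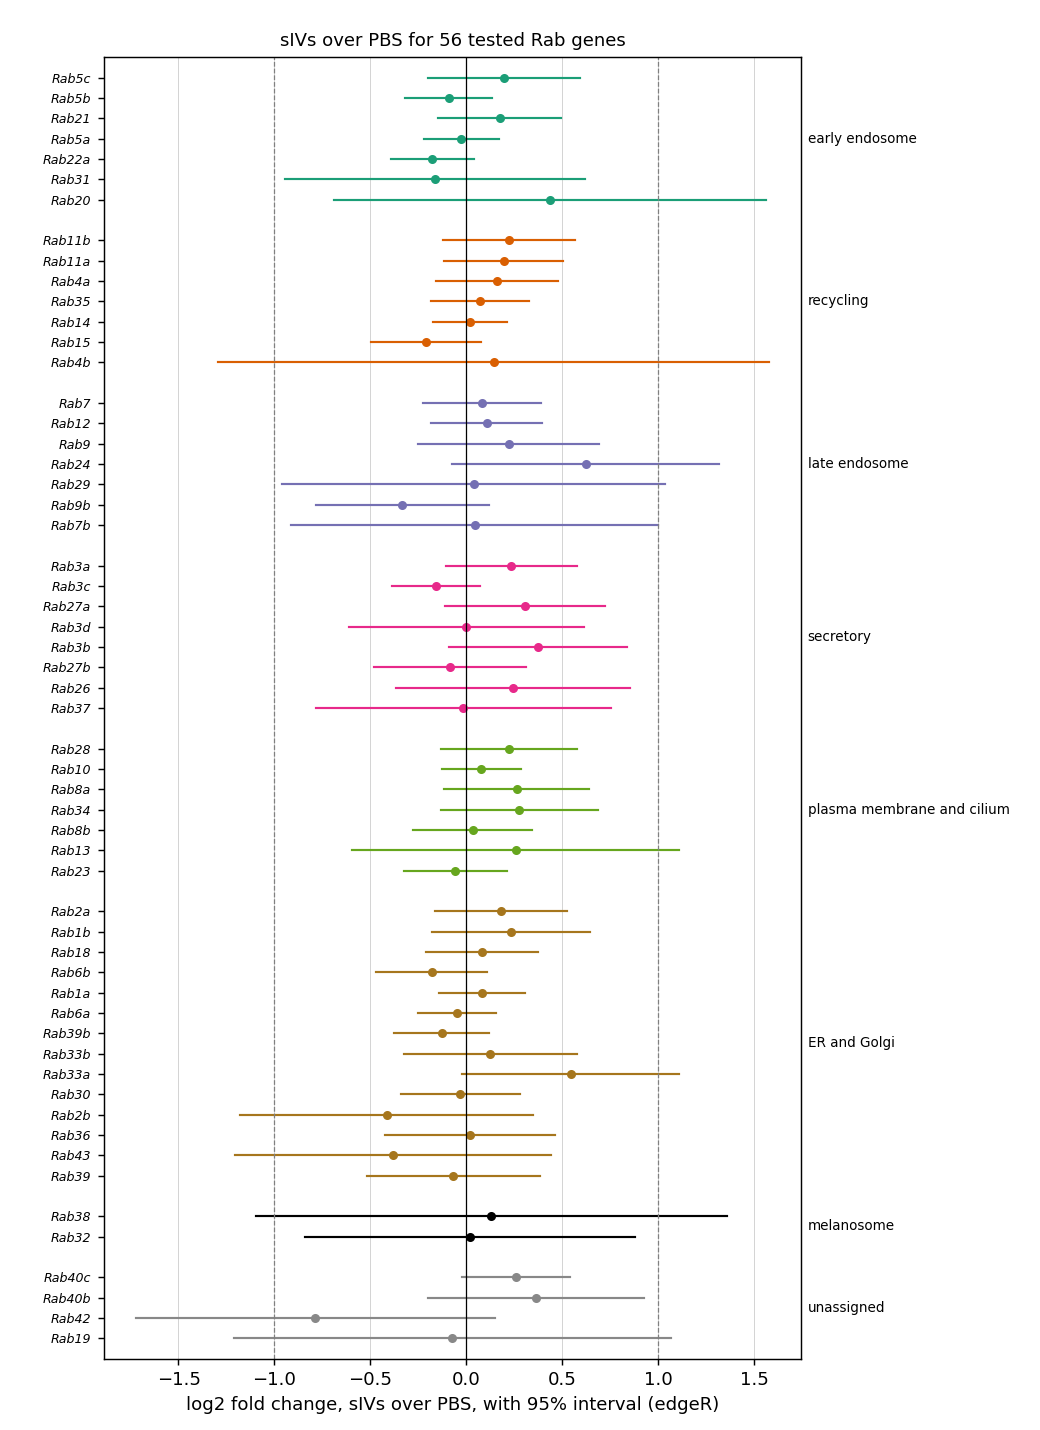
Log2 fold change of sIVs over PBS (edgeR) for the 56 tested Rab genes by compartment, with 95% confidence intervals and dashed lines at a 2-fold change. Every interval includes 0, and 45 of 56 lie between the dashed lines.

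The size of the family median rested largely on the library that stood apart. Without sIVs replicate 4 the median log2 fold change of the 56 genes was 0.009 with 31 positive, without PBS replicate 1 it was 0.03, and without both it was -0.04 with 23 positive. That library was the highest of the 8 for 28 of 56 members, against 35.7% of all genes tested, and the lowest for 13, or 23.2%, against 35.4%. PBS replicate 1 was the lowest for 22 members (39.3%, against 18.5% of all genes). The Rab genes together took 0.410% of all counts in sIVs replicate 4 and 0.317% to 0.376% in the other 7 libraries, with PBS replicate 1 at the low end. As a share of the FPKM summed over all genes, sIVs replicate 4 (0.409%) lay within the 0.374% to 0.422% of the other 7 libraries.

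**Figure D3:**
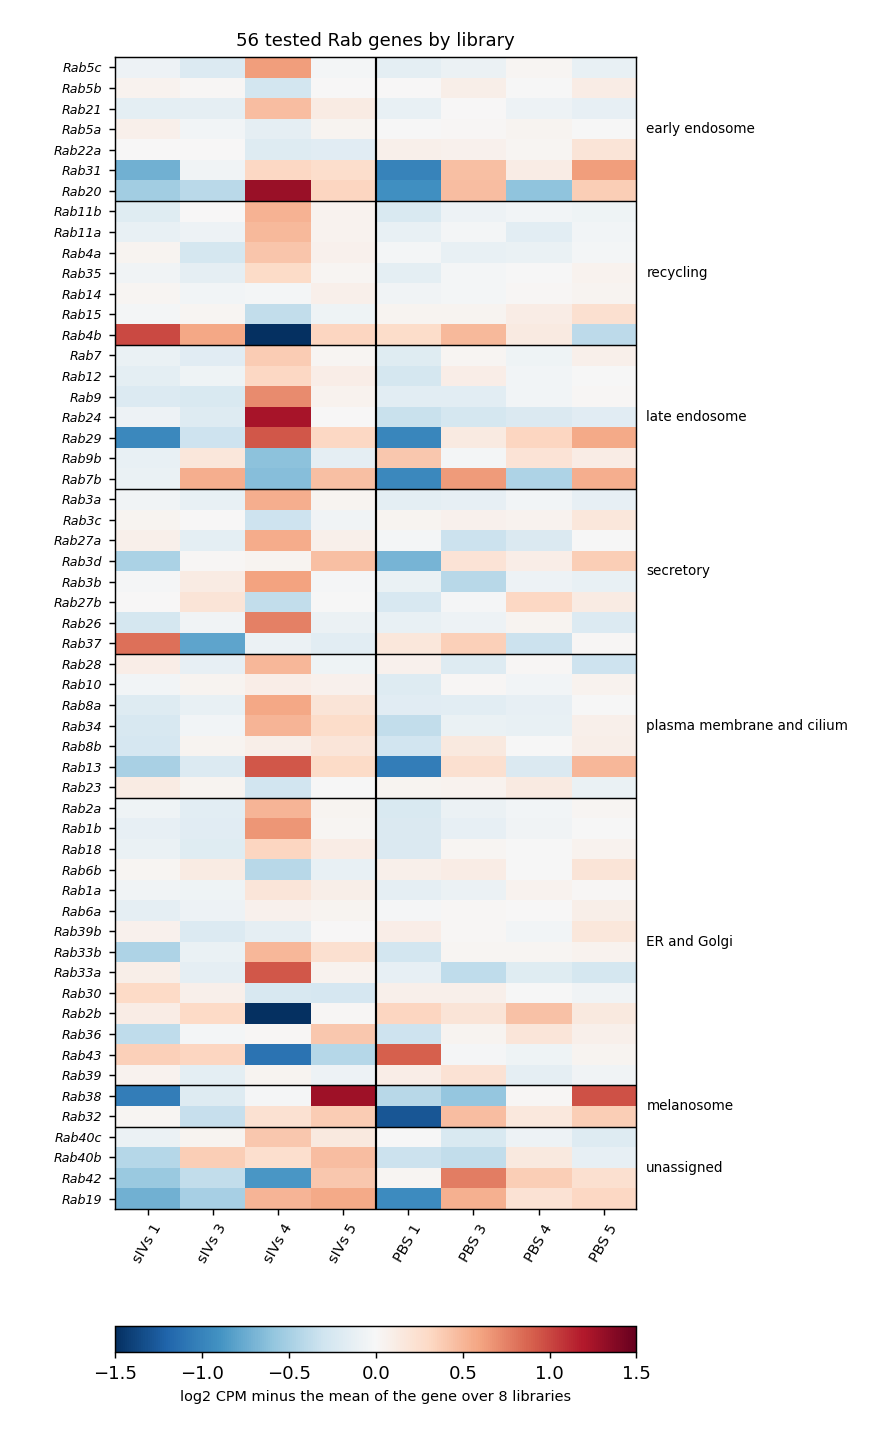
Colour map of log2 CPM, centred on the mean of each gene, for the 56 tested Rab genes (rows, by compartment) in each library (columns, sIVs left and PBS right), with colours capped at -1.5 and 1.5. The column of sIVs replicate 4 holds the highest value of 28 genes and the lowest of 13, and the column of PBS replicate 1 the lowest of 22.

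Deviations varied with gene length, over all genes most of all in sIVs replicate 4. Over all genes, the median log2 deviation there from the other 7 libraries was 0.60 for genes under 2 kb, 0.28 from 2 to under 4 kb, -0.16 from 4 to under 8 kb and -0.58 at 8 kb or more. Over the Rab genes the same medians were 0.62, 0.44, -0.13 and -0.33, for 10, 25, 16 and 5 genes. The Spearman correlation of deviation with listed length was -0.45 over the 17004 genes and -0.52 over the 56 members, given as a description because the genes share a library. In sIVs replicate 5 it was -0.23 over all genes and -0.49 over the members. In the other 6 libraries it ran from -0.04 to 0.23 over all genes and from -0.10 to 0.43 over the members, with 0.43 in sIVs replicate 3 and 0.37 in PBS replicate 1. Over the members the order of libraries depended on the statistic. Pearson correlation with log2 length was -0.31 in sIVs replicate 4, -0.47 in sIVs replicate 5 and 0.39 in sIVs replicate 3. It was 0.38 in sIVs replicate 1, 0.32 in PBS replicate 1 and -0.16 to 0.05 in the other PBS libraries. In a further fit, a smoothed curve of each library's log2 CPM, relative to the gene mean, against listed length was entered as an offset. That setting was chosen after seeing this pattern, and its curves came from these same libraries. The member median was then 0.03. The origin of the pattern was not tested.

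**Figure D4:**
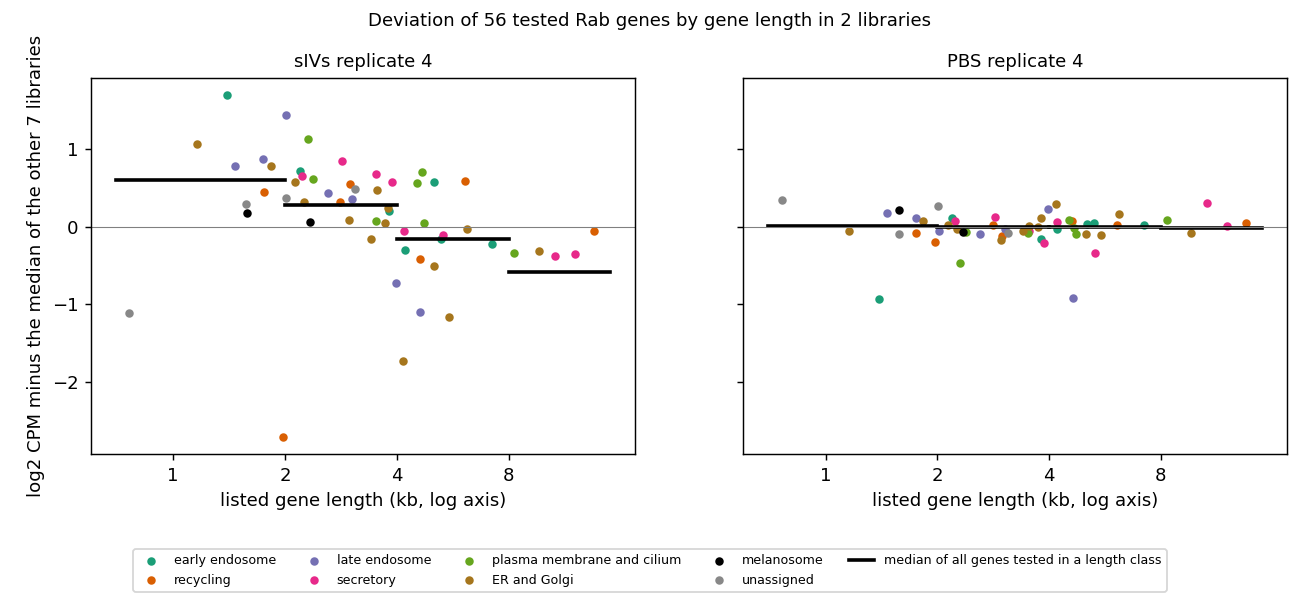
Log2 CPM minus the median of the other 7 libraries against listed gene length in kb (log axis) for the 56 tested Rab genes, in sIVs replicate 4 (left) and in PBS replicate 4, the library with the weakest relation to length (right). Black bars are medians of all genes tested in a length class, which run from 0.60 under 2 kb to -0.58 at 8 kb or more in sIVs replicate 4 and from 0.01 to -0.02 in PBS replicate 4.

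For the leading early endosomal genes, most of the difference lay in 1 library. Rab5c had 118, 108, 192 and 122 CPM (counts scaled to a common library size) in sIVs retinas, against 113, 117, 126 and 115 CPM in PBS retinas. The value of sIVs replicate 4 was above all others, and the other 7 libraries of both groups overlapped (log2 fold change 0.20 ± 0.18 SE, adjusted p 0.81, and -0.02 without that library). Rab5b had 129, 127, 103 and 126 CPM in sIVs retinas, against 125, 133, 125 and 135 CPM in PBS retinas. Here sIVs replicate 4 was the lowest of the 8, and the log2 fold change was -0.09 ± 0.10 (adjusted p 0.81). Rab21 had 76.0, 76.5, 116 and 91.6 CPM in sIVs retinas, against 77.7, 84.7, 80.0 and 77.2 CPM in PBS retinas (log2 fold change 0.17 ± 0.14, adjusted p 0.81). Both sIVs replicates 1 and 3 lay below every PBS library for Rab21, and sIVs replicates 4 and 5 lay above them.

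The other early endosomal genes of interest by rule were Rab22a and Rab20. Rab22a, which acts in early endosomes and recycling tubules (chr2:173659760-173707343, plus strand), had 50.2, 50.3, 43.9 and 44.5 CPM in sIVs retinas, against 53.0, 52.3, 51.0 and 57.2 CPM in PBS retinas. All 4 sIVs values lay below all 4 PBS values, and the log2 fold change of -0.18 ± 0.10 did not pass (unadjusted p 0.0951, adjusted p 0.81). Rab20 had 1.43, 1.56, 5.37 and 2.68 CPM in sIVs retinas, against 1.06, 2.95, 1.34 and 2.77 CPM in PBS retinas. The groups overlapped, sIVs replicate 4 was the highest library, and the log2 fold change was 0.44 ± 0.50 (adjusted p 0.81) with all libraries and -0.11 without that one.

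Of the 56 tested members 22 had their lowest value in PBS replicate 1. Among them were the abundant Rab3a, Rab2a and Rab7 as well as Rab20 and several other low genes. Rab13 and Rab31, given here, are outside the rule for genes listed by library. Rab13, a Rab of tight junctions, stood at 7.56 CPM in PBS replicate 1 and at 11.1 to 29.9 CPM elsewhere. Rab31 stood at 7.79 CPM there and at 9.46 to 24.4 CPM elsewhere, and Rab32 at 0.907 CPM there and at 1.85 to 3.36 CPM elsewhere. The 11 microglia and macrophage markers, all detected, summed to 151 to 351 CPM in sIVs retinas and, in PBS retinas, to 54.8 CPM in PBS replicate 1 and 179 to 256 CPM in the other 3. The 12 rod markers summed to 66699 and 65160 CPM in sIVs replicate 1 and PBS replicate 1, and to 34689 to 55868 CPM in the other 6 libraries. The part of cell makeup in these Rab values was not tested.

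The leading recycling genes, like Rab5c, had their highest value in sIVs replicate 4. Unlike for Rab5c, their edgeR log2 fold changes stayed positive with any 1 library left out. The lowest such values were 0.06 for Rab11b, 0.04 for Rab11a and 0.03 for Rab4a. Rab11b had 160, 183, 263 and 190 CPM in sIVs retinas, against 156, 173, 177 and 175 CPM in PBS retinas. Its groups overlapped, with sIVs replicate 4 above all others (log2 fold change 0.22 ± 0.15, adjusted p 0.81). The pseudogene Rab11b-ps2, whose reads can be split with Rab11b, had a log2 fold change of -0.32 ± 0.12 (adjusted p 0.81). Rab11a had 72.2, 74.1, 109 and 80.7 CPM in sIVs retinas, against 72.2, 76.2, 69.7 and 75.5 CPM in PBS retinas (log2 fold change 0.19 ± 0.14). Rab4a had 42.6, 34.5, 55.3 and 43.3 CPM in sIVs retinas, against 40.5, 38.1, 38.4 and 40.5 CPM in PBS retinas (log2 fold change 0.16 ± 0.14). In these 3 genes the sIVs libraries other than replicate 4 overlapped the PBS libraries.

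Rab15 and Rab4b differed in form. Rab15 (chr12:76797960-76822908, minus strand) had 20.2, 21.1, 15.8 and 19.7 CPM in sIVs retinas, against 21.2, 21.2, 22.2 and 24.4 CPM in PBS retinas. All sIVs values were below all PBS values, though the nearest PBS libraries were almost level with the highest sIVs one, and the log2 fold change was -0.21 ± 0.13 (adjusted p 0.81). Rab4b had 27, 20, 1 and 17 counts in sIVs retinas, against 15, 23, 15 and 11 counts in PBS retinas. Its single count in sIVs replicate 4 gave it the widest ratio of highest to lowest CPM among the tested genes, and the groups overlapped (log2 fold change 0.14 ± 0.64, adjusted p 0.95).

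Among late endosomal genes, Rab7 did not differ beyond its spread. It had 205, 195, 284 and 223 CPM in sIVs retinas, against 194, 223, 210 and 231 CPM in PBS retinas. The groups overlapped, and the log2 fold change was 0.08 ± 0.14 (95% interval -0.22 to 0.39) with all libraries and -0.05 without sIVs replicate 4. Rab12 had 67.6, 71.9, 93.3 and 80.0 CPM in sIVs retinas, against 62.5, 80.6, 73.0 and 74.6 CPM in PBS retinas (log2 fold change 0.11 ± 0.13). Rab9 had 19.9, 19.7, 37.8 and 23.9 CPM in sIVs retinas, against 20.6, 20.7, 22.4 and 23.2 CPM in PBS retinas (log2 fold change 0.22 ± 0.21, and -0.04 without sIVs replicate 4). For both genes the highest value of the 8 was that of sIVs replicate 4.

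Rab24 had the largest positive fold change of the family. It had 16.1, 14.8, 40.2 and 17 CPM in sIVs retinas, against 13.5, 14.1, 14.6 and 15.1 CPM in PBS retinas (chr13:55319743-55321946, minus strand). The value of sIVs replicate 4 was above every other library, sIVs replicates 1 and 5 were above all PBS libraries, and sIVs replicate 3 lay among them. The log2 fold change was 0.62 ± 0.31 (unadjusted p 0.0741, adjusted p 0.81), and 0.16 without sIVs replicate 4. Prelid1, which overlaps Rab24 on the opposite strand and whose product carries lipid in mitochondria, had 130, 136, 339 and 169 CPM in sIVs retinas, against 127, 137, 154 and 132 CPM in PBS retinas. Both genes had their highest value in sIVs replicate 4, and the part of shared reads in this was not tested.

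Among secretory genes the 2 leading members lay on opposite sides of 0. Rab3a had 309, 295, 466 and 330 CPM in sIVs retinas, against 289, 295, 312 and 295 CPM in PBS retinas. Its groups overlapped, with sIVs replicate 4 highest (log2 fold change 0.23 ± 0.15, adjusted p 0.81, and 0.06 without that library). Rab3c (chr13:110054187-110280996, minus strand) had 140.5, 136.9, 110.2 and 131.7 CPM in sIVs retinas, against 140.7, 143.4, 142.0 and 153.4 CPM in PBS retinas. The sIVs values all lay below the PBS values, and the nearest libraries almost met (log2 fold change -0.16 ± 0.10, adjusted p 0.81). With the length offset that value was 0.04, and the listed lengths of Rab3a and Rab3c are 2226 and 12049 bases. The part of length in these values was not tested.

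Rab3b was the 1 gene with all sIVs values above all PBS values. It had 5.45, 6.04, 8.45 and 5.43 CPM in sIVs retinas, against 5.14, 4.11, 5.24 and 5.12 CPM in PBS retinas (chr4:108879063-108943324, plus strand). The log2 fold change was 0.37 ± 0.21 (unadjusted p 0.103, adjusted p 0.81). Groups without overlap thus occurred in 1 member with sIVs higher, against 1.08% of all genes tested, and in 3 members with sIVs lower (Rab3c, Rab15 and Rab22a), against 0.929%, or 2.01% in either direction. Rab27a had 10.3, 8.81, 14.4 and 10.3 CPM in sIVs retinas, against 9.60, 7.75, 8.40 and 9.75 CPM in PBS retinas, and sIVs replicate 3 lay among the PBS values (log2 fold change 0.31 ± 0.19, adjusted p 0.81).

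In the other compartments, Rab33a came nearest to the threshold. It acts at the Golgi and in autophagy and had 7.45, 6.39, 13.6 and 7.29 CPM in sIVs retinas, against 6.43, 5.38, 6.18 and 5.84 CPM in PBS retinas (chrX:48519285-48530232, plus strand). PBS replicate 1 lay just above sIVs replicate 3, so the groups overlapped (log2 fold change 0.54 ± 0.25, unadjusted p 0.0581, adjusted p 0.81). Without sIVs replicate 4 the log2 fold change was 0.24. Rab40c had 47.4, 52, 67 and 56 CPM in sIVs retinas, against 50.5, 43.1, 48.0 and 44.2 CPM in PBS retinas (log2 fold change 0.26 ± 0.12, unadjusted p 0.0658, adjusted p 0.81). Here 3 sIVs libraries were above all PBS libraries and sIVs replicate 1 lay within them.

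Rab42, a low gene of unclear place, had the largest negative fold change. It had 5, 6, 4 and 12 counts in sIVs retinas, against 8, 19, 12 and 12 counts in PBS retinas. The value of sIVs replicate 5, 0.825 CPM, lay within the PBS range of 0.605 to 1.10 CPM, and the log2 fold change of -0.79 ± 0.42 did not pass (adjusted p 0.81). The counts are small, and the interval of -1.72 to 0.15 is wide.

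**Figure D5:**
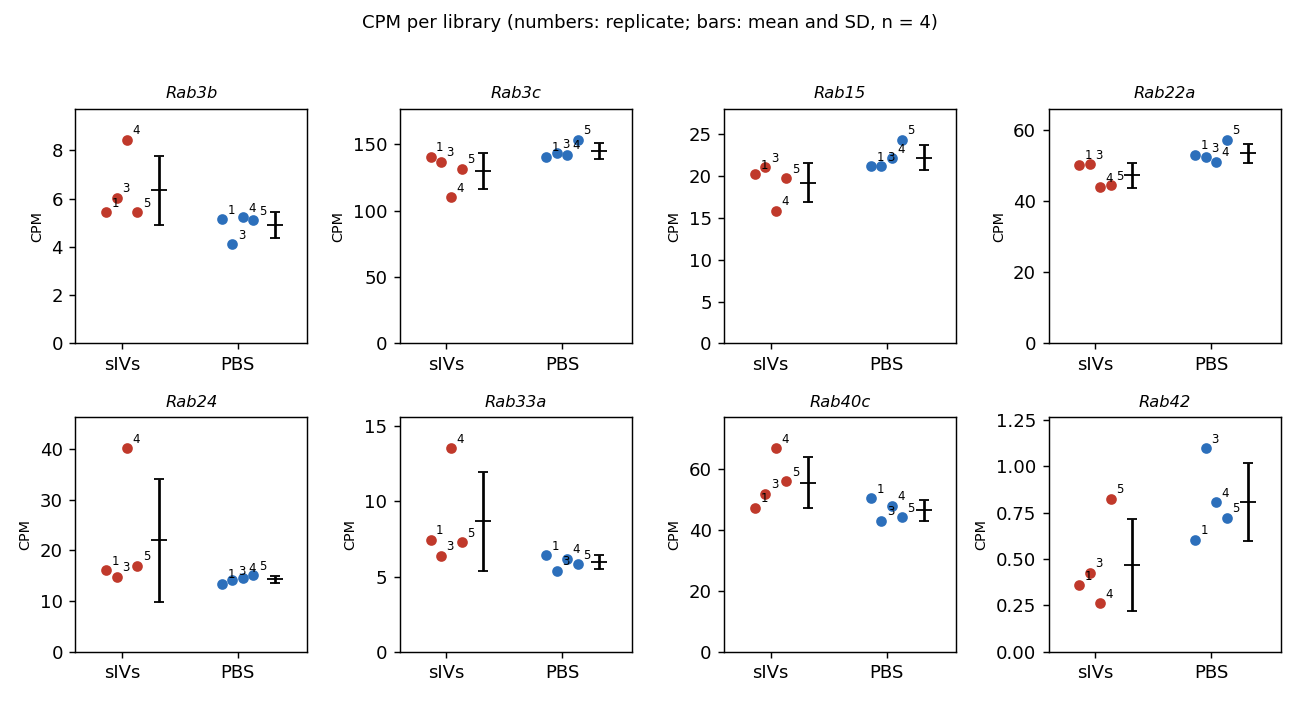
CPM in each library, sIVs left and PBS right, for the 4 Rab genes whose groups do not overlap (Rab3b, Rab3c, Rab15 and Rab22a) and 4 of those with the smallest p (Rab24, Rab33a, Rab40c and Rab42), with replicate numbers beside the points and bars for mean and SD (n = 4). In Rab24 and Rab33a the point of sIVs replicate 4 (40.2 and 13.6 CPM) stands far above the other 7.

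The leading Golgi, membrane and ciliary genes also had their highest value in sIVs replicate 4. Rab2a had 199, 186, 295 and 214 CPM in sIVs retinas, against 178, 196, 203 and 213 CPM in PBS retinas (log2 fold change 0.18 ± 0.15). Rab1b had 131, 127, 226 and 146 CPM in sIVs retinas, against 123, 131, 138 and 143 CPM in PBS retinas (log2 fold change 0.23 ± 0.18). For both, sIVs replicate 4 was highest and the other sIVs values overlapped the PBS values. Rab28 had 169, 144, 222 and 150 CPM in sIVs retinas, against 164, 137, 159 and 126 CPM in PBS retinas (log2 fold change 0.22 ± 0.16). Rab10 had 98.8, 105, 109 and 107 CPM in sIVs retinas, against 89.2, 103, 99.2 and 106 CPM in PBS retinas (log2 fold change 0.08 ± 0.09). The groups overlapped for Rab28 and for Rab10, with adjusted p values of 0.81 and 0.82.

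The melanosome genes varied between libraries within both groups. Rab38 had 0.932, 1.78, 2.03 and 5.16 CPM in sIVs retinas, against 1.51, 1.33, 2.08 and 4.09 CPM in PBS retinas, so replicate 5 was the highest of each group (log2 fold change 0.13 ± 0.54, adjusted p 0.94). The 8 markers of cornea, lens and ciliary body, all detected, summed to 100.3 CPM in sIVs replicate 5 and 112 CPM in PBS replicate 5, and to 31.6 to 53.4 CPM in the other 6 libraries. The 12 markers of pigment epithelium and melanocytes, also all detected, summed to 42.7, 13.4, 459 and 75.2 CPM in sIVs retinas, with 459 CPM in replicate 4, and to 12.6 to 69.2 CPM in PBS retinas. Rab32 had 2.44, 1.85, 2.82 and 3.16 CPM in sIVs retinas, against 0.907, 3.36, 2.69 and 3.13 CPM in PBS retinas, and its groups overlapped (log2 fold change 0.02 ± 0.38, adjusted p 0.99). The part of carried-over tissue in these values was not tested.

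The genes that act on Rabs were read from lists of regulators and effectors. Of 78 regulators, 76 were tested, and of 54 effectors 51 were tested. edgeR called 0 of each, none had an unadjusted p under 0.05, and none had groups without overlap. Over all genes tested these shares were 0.0%, 1.5% and 2.01%. DESeq2 called 0 of the regulators and effectors, with 0 under an unadjusted 0.05, and voom called 0, with 1 under it. The log2 fold change was positive for 29 regulators and negative for 47, with a median of -0.07. It was positive for 10 effectors and negative for 41, with a median of -0.11. In sIVs replicate 4 the regulators had their lowest value of the 8 libraries in 42 of 76 cases and the effectors in 35 of 51. These are 55.3% and 68.6%, against 35.4% of all genes tested. The lists together had 39 of 127 genes positive with a median of -0.09, which became 60 of 127 with -0.009 without sIVs replicate 4, 60 of 127 with -0.009 under the length offset and 64 of 127 with 0.002 under voom. Their median listed length together was 6.73 kb, against 3.52 kb for the Rab genes tested and 3.95 kb for all genes tested. The offset takes out each library's own length trend by construction, and the part of length in this balance was not tested.

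By role, 6 of 8 genes for prenylation and recycling of Rab proteins were positive, 12 of 33 exchange factors and 11 of 35 GTPase-activating proteins. Rabac1, a receptor for prenylated Rabs, had 115, 103, 319 and 136 CPM in sIVs retinas, against 103, 105, 120 and 115 CPM in PBS retinas. The high library was again sIVs replicate 4, and the groups overlapped (log2 fold change 0.60 ± 0.33, adjusted p 0.81, and 0.09 without that library). Dennd5b, of the DENN exchange factors, had 62.2, 64.3, 31.6 and 51.1 CPM in sIVs retinas, against 68.7, 72.3, 62 and 72 CPM in PBS retinas, where sIVs replicate 4 was lowest (log2 fold change -0.40 ± 0.20). Tbc1d4, a GTPase-activating protein for Rab10 and Rab8, had 15.4, 18.0, 12.5 and 15.3 CPM in sIVs retinas, against 16.9, 19.4, 18.4 and 20.4 CPM in PBS retinas (log2 fold change -0.29 ± 0.14). In both genes the groups overlapped and the adjusted p was 0.81.

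With all libraries in the edgeR fit, effectors of the 4 compartments were mostly on the negative side, with 11 of 13 early endosomal, 10 of 12 recycling, 9 of 12 late endosomal and 11 of 14 secretory effectors tested below 0. Regulators and effectors together lost this balance without sIVs replicate 4, and effectors alone were not counted in that fit. Ankfy1, a Rab5 effector, had 81.0, 76.6, 47.2 and 78.3 CPM in sIVs retinas, against 74.8, 88.1, 78.9 and 87.3 CPM in PBS retinas (log2 fold change -0.22 ± 0.17). Exoc6b, an exocyst subunit of the Sec15 type that binds Rab11, had 50.1, 49.9, 32.7 and 42.4 CPM in sIVs retinas, against 53.1, 53.2, 48.4 and 53.3 CPM in PBS retinas (log2 fold change -0.25 ± 0.14). For each of them sIVs replicate 4 was the lowest library and the groups overlapped.

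Rilpl2, of the family of the Rab7 effector Rilp, had 7.24, 6.53, 15.3 and 8.87 CPM in sIVs retinas, against 6.27, 6.60, 6.52 and 8.06 CPM in PBS retinas (log2 fold change 0.47 ± 0.27). Rims4, a small member of the family of active-zone Rab3 effectors, had 34.5, 33.2, 21.3 and 30.1 CPM in sIVs retinas, against 40.3, 36.9, 31.2 and 38.0 CPM in PBS retinas (log2 fold change -0.30 ± 0.16). Neither passed, with adjusted p values of 0.81, and the groups overlapped for each. Rph3a, rabphilin, which binds Rab3 on vesicles, varied most between libraries and was picked out after its values were seen. It had 204, 4.62, 2.75 and 3.99 CPM in sIVs retinas, against 209, 118, 198 and 7.16 CPM in PBS retinas. High and low libraries occurred in both groups, and the log2 fold change was -1.31 ± 1.40 (adjusted p 0.81).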

How the data were processed

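Mouse retina RNA was measured by RNA sequencing of poly(A)-selected libraries, 4 sIVs and 4 PBS, with groups and replicate numbers taken from the titles. The authors deposited a table of unnormalized counts for 54532 genes, listing position, length and biotype. A second deposited table holds FPKM, used here for levels between genes. The submitters' processing notes name mm10 as genome build. Strand setting, counter and aligner were not given in the sources used here.

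Depth was 13803958 to 16622259 counts per library. The filterByExpr filter of edgeR 4.0.16 (R 4.3.3) left 17004 genes, and 22766 genes had no count. TMM factors scaled the counts, which entered the two-sided quasi-likelihood F test. Group was its sole term, and p-values were adjusted by Benjamini-Hochberg over all genes, at 0.05. The common biological coefficient of variation was 0.254. CPM are counts scaled to a common library size, taken after TMM. Standard errors are the absolute log2 fold change over the square root of F, and 95% intervals use them, so both are approximate. The procedure was tested on simulated data with known changes, which held no library that stood apart and no trend with gene length.

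Alternatives were DESeq2 1.42.0, limma-voom with quality weights (limma 3.58.1), and limma fits to log2 of the deposited FPKM plus 1 or plus 0.1. Others were further filters and scaling factors, the replicate number as a block, and the omission of single libraries. Shared sequence was counted in 150-base windows of GENCODE M21 transcripts. All 59 genes matched M21, and the listed length equalled the M21 exon length for 55.

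Members, compartments and gene lists were chosen with earlier results of these data known. The rule for genes given by library took the 3 highest by FPKM in each of the 4 compared compartments and the 2 highest in each other one. It added the 5 of smallest p, those whose groups did not overlap, the 3 of widest CPM ratio among those averaging 1 CPM or more, and the gene of smallest p in each list of regulators or effectors. It named 34 genes. No protein sequence was used here.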

Additional observations from a re-analysis of the deposited data

Results flagged for a closer look

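In groups of 4 libraries, a value is listed here when its gap to the nearest other value exceeds Dixon's 95% limit, which chance passes in about 1 of 20 groups. Of 86 groups examined 9 passed, and 6 of the 9 concern sIVs replicate 4. Unselected, independent groups would give 4.3 by chance. These groups share their libraries and many of their genes were picked by their values, so that number is no measure for the 9. In that library Rab5c stood at 192 CPM (108 to 122 in the other sIVs libraries), Rab33a at 13.6 CPM (6.39 to 7.45), Rab24 at 40.2 CPM (14.8 to 17) and Rabac1 at 319 CPM (103 to 136). Rab5b was low there at 103 CPM (126 to 129), as was Ankfy1 at 47.2 CPM (76.6 to 81.0).

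In PBS retinas Rab3b was low in replicate 3 at 4.11 CPM (5.12 to 5.24 in the others) and Exoc6b was low in replicate 4 at 48.4 CPM (53.1 to 53.3). The summed FPKM of early endosomal Rabs was low in PBS replicate 1 at 118 (127 to 128 in the others).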

How the results depend on the processing

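No alternative called any Rab gene, regulator or effector. Of 375 values of named genes under other settings 348 kept their direction, as did 260 of 272 with 1 library left out. Under voom with quality weights the medians of log2 fold changes were -0.011 for secretory, -0.075 for endoplasmic reticulum and Golgi and 0.0076 for recycling genes. Log2 fold changes that turned under voom were -0.020 for Rab2a, -0.016 for Rab1b, -0.087 for Rab7, -0.048 for Rab12, -0.055 for Rab9, -0.045 for Rab5c, -0.013 for Rab21, -0.0016 for Rab4a, -0.074 for Rab38, -0.30 for Rab32 and -0.28 for Rab20. With the length offset, chosen after seeing the data, they were 0.044 for Rab3c, -0.050 for Rab7, -0.0019 for Rab9, -0.034 for Rab4a, -0.045 for Rab38 and -0.12 for Rab32. Rab4b was -0.20 on log2(FPKM + 0.1). The cause was not tested. Adding the counts of the pseudogenes to Rab11b and Rab7, also chosen after seeing the data, turned neither.

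With single libraries left out, or sIVs replicate 4 together with PBS replicate 1, the median ran from -0.0043 to 0.25 for secretory, from -0.074 to 0.048 for endoplasmic reticulum and Golgi and from 0.016 to 0.17 for recycling genes. Over the same fits Rab2a ran from -0.035 to 0.26, Rab1b from -0.034 to 0.32, Rab7 from -0.095 to 0.15, Rab12 from -0.060 to 0.17, Rab9 from -0.067 to 0.32 and Rab5c from -0.046 to 0.29. Rab38 ran from -0.51 to 0.59, Rab32 from -0.31 to 0.19, Rab4b from -0.23 to 0.58 and Rab20 from -0.32 to 0.67.

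Deviations of same-numbered libraries correlated at 0.60, 0.02, 0.23 and 0.51 for replicates 1, 3, 4 and 5, so the numbers were not taken as pairs, though sIVs replicates 1, 4 and 5 each correlated best with the PBS library of their own number. The fit with a replicate block called 0 genes (588 at an unadjusted p under 0.05, against 255) and gave a member median of 0.07, with Rab4b at -0.043. It put 6 regulators or effectors under an unadjusted 0.05, against 0 without the block. Among tested Rab genes, low counts limit Rab19, Rab42 and Rab4b most, with 75, 78 and 129 counts in all libraries together. With 4 libraries a group the one that stands apart weighs on every fold change.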
